A study of Mus musculus with 33 samples.

Results

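Potassium channel genes were described in stromal cells of the mouse colon profiled cell by cell in droplets, where a captured RNA is counted once by its unique molecular identifier (UMI), near its 3' end. The members are the 92 genes whose symbol is Kcn followed by letters and a number, out of 31053 genes in the count matrices. Of these, 17 had no UMI in any cell, 41 had at least 1 UMI but stayed under 20 UMIs in every class of cells, and 34 reached 20 UMIs in a class of at least 1 library. The series holds 33 samples, and the 3 single-cell libraries were used here. The whole mesenchyme library (1 library, genotype given as control) held colon cells sorted as negative for EpCAM and CD45, proteins of epithelium and leukocytes. The libraries titled PdgfraLo (2 replicates), called GFP-low here, came from PdgfraH2BeGFP mice, in which a nuclear green fluorescent protein is made from the Pdgfra locus, and held unstained colon cells sorted by the level of that reporter, with the gate not given. All mice were adult, both sexes were used, no treatment was given, and the outer muscle layer was removed before the cells were isolated, so smooth muscle here is that of the remaining tissue. All 65 glia and 799 of 802 blood endothelial cells came from whole mesenchyme.

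Potassium channels let potassium leave or enter a cell and so set its resting voltage. Voltage-gated channels open when the membrane depolarises, calcium-activated channels couple internal calcium to voltage, inward rectifiers and 2-pore channels carry background current, and auxiliary subunits change how a pore opens. In the gut wall they are known for controlling the tone of smooth muscle and pericytes, the excitability of nerve and glia, and the voltage that drives calcium entry into endothelium.

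The libraries held between 39190629 and 52313765 UMIs. Barcodes under 1000 UMIs or 500 genes, or over 20% mitochondrial, were dropped. Whole mesenchyme kept 6793 cells, and the GFP-low replicates 4834 and 6025. Pairs of libraries shared 6, 11 and 11 cell barcodes, where independent draws would share 4.83, 6.02 and 4.29. Cells were grouped on other genes than the members and named from marker genes. In whole mesenchyme the classes were Cd81-low fibroblasts (3369 cells), telocyte-like cells (1565), blood endothelium (799), Cd81-high fibroblasts (452), smooth muscle or myofibroblasts (162), pericytes (87), glia (65) and lymphatic endothelium (59). These markers gave the classes their names, so finding them there is no separate check. All 10 blood endothelium markers and all 10 smooth muscle markers were present, with at least 1 UMI, in their classes. So were all 10 pericyte markers in pericytes. Glia carried 9 of 10 glial markers. Over all libraries, some fibroblast clusters had few elevated markers (rule given below). The Cd81-high clusters of 2957, 2168 and 1344 cells had 4, 5 and 4 of 10, and the Pi16 cluster 8 of its own 8. Cd81-low clusters of 2228, 1095, 1073, 638 and 895 cells had 7, 9, 7, 6 and 4 of 9. That of 895 cells was shallow, at 0.391 of its libraries' median UMIs. The clusters of 2957, 2168 and 895 cells had 0 among their leading genes. The level of Cd81 is not given here. The pericyte class also carried smooth muscle markers at a summed 10418 CPM (UMIs per 1e6 UMIs of the class), against 23367 CPM in the smooth muscle class.

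A member was said to mark a class when it had at least 20 UMIs there and was at least 4-fold higher than in all other whole mesenchyme cells together. This comparison has 1 library, so it has no test, and the intervals cover counting error only. In whole mesenchyme, 33 members reached 20 UMIs in a class and 21 of them marked at least 1 class, 3 of them a pair of classes. Every member that reached 20 UMIs marked the class in glia (3 of 3), pericytes (6 of 6) and lymphatic endothelium (2 of 2). Of all held-out genes with at least 20 UMIs there, 9.54%, 7.57% and 13.1% did. These small classes hold few UMIs, so a gene reached 20 there only at a high level. In any class, a gene found almost only there reaches 20 UMIs through that class and then marks it. The held-out genes were not matched to the members for level, so their shares here and below are a description only. In Cd81-low fibroblasts, the class with most UMIs, 0 of 24 members marked it, beside 0.765% of held-out genes.

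**Figure D1:**
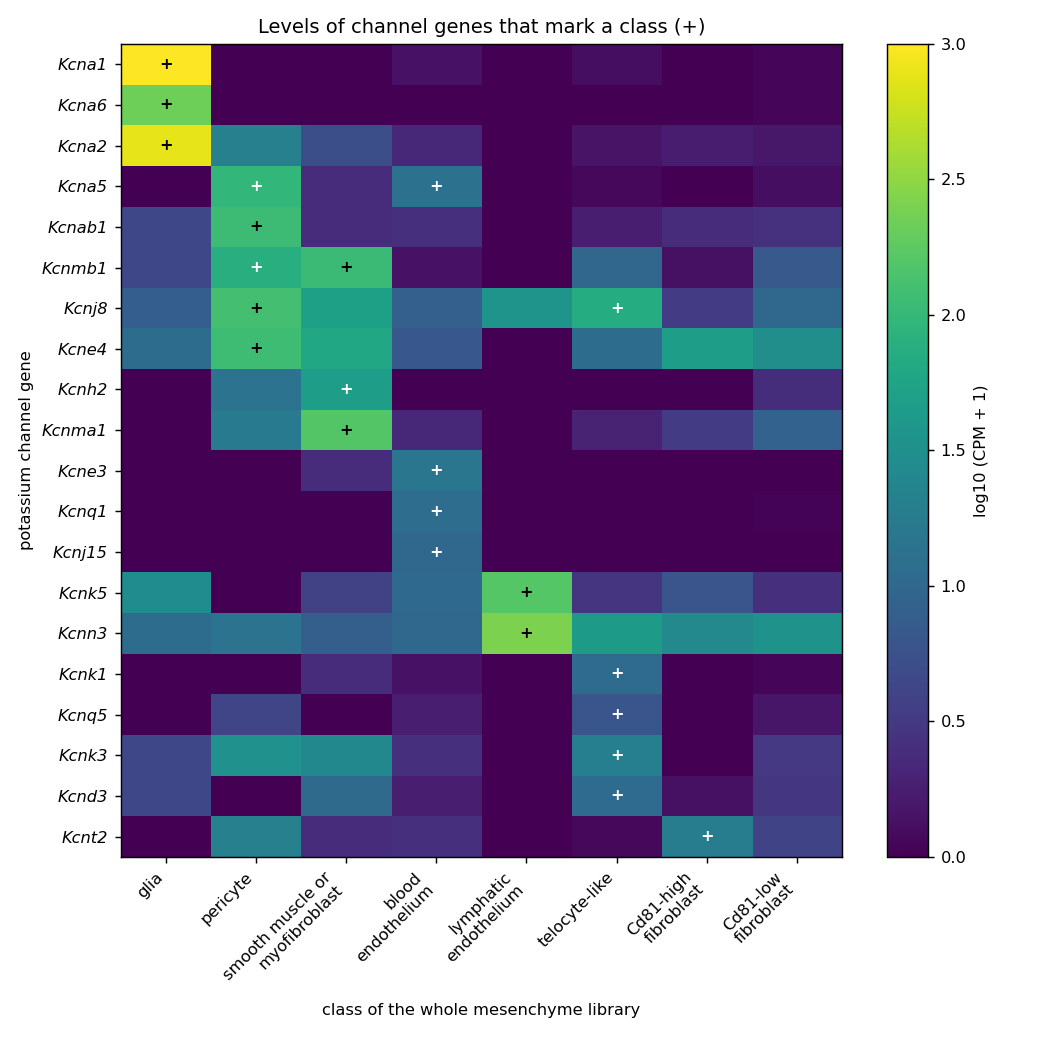
Level of the marking members reported here in each class of the whole mesenchyme library, as log10 of CPM + 1 by colour, genes on the vertical axis and classes on the horizontal axis. A plus sign marks a class with at least 20 UMIs and at least 4-fold over all other cells, and the brightest fields are Kcna1 (975 CPM) and Kcna2 (778 CPM) in glia.

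Promoters are shown for 2 pairs of genes that were high together in 1 class, the Shaker-type subunits Kcna2 and Kcna6 of glia and the pore Kcnma1 with its subunit Kcnmb1 of smooth muscle. Each is the 250 bases before an annotated start, read 5' to 3' along the gene from RefSeq (GRCm38.p6). Capitals mark the dinucleotide CG. In each case this start lies inside the span of the gene, which begins at chr3:107090883 for Kcna2 and at chr14:24005110 for Kcnma1.
Kcna2, chr3:107101317-107101566, plus strand: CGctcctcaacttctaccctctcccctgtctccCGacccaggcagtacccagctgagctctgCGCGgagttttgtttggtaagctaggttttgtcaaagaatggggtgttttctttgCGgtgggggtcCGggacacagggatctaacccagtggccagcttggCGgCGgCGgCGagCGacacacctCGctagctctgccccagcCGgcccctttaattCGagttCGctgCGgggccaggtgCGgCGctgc
Kcna6, chr6:126740675-126740924, minus strand: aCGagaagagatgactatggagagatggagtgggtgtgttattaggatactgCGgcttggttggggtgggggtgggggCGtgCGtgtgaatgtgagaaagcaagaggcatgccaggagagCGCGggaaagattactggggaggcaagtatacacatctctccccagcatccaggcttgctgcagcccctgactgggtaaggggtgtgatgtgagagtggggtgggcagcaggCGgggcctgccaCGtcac
Kcnma1, chr14:24004206-24004455, minus strand: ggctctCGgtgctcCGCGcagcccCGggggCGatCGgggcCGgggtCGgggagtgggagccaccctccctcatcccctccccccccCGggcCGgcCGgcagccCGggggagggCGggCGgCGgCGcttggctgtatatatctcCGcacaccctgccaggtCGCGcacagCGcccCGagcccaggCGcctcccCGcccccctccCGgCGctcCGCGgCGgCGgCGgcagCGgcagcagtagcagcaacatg
Kcnmb1, chr11:33962763-33963012, plus strand: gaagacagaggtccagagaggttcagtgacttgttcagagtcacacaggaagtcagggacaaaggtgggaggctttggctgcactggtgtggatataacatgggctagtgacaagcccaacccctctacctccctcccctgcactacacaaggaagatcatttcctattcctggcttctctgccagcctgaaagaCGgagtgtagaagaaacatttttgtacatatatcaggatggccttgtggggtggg
The Kcnma1 promoter held 31 CG and the Kcnmb1 promoter 1, although both genes were high in smooth muscle. The median over 32851 promoters was 6, with quartiles of 2 and 16. The Kcna2 promoter held 18 CG and that of Kcna6 held 8. Promoters were in the table for 17 of the 21 marking genes, and Kcna1, Kcnk3 and Kcnq1 are among those not in it. A pair of motifs, chosen after the class levels were known, was also searched on both strands. The CArG box, the serum response factor motif, was in none of the promoters of these 17 genes and in 1.47% of all promoters. The SOX core ACAAAG was in 1 promoter each of Kcnab1, Kcnj15 and Kcnmb1, and in 16.5% of all promoters.

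Glia held the highest levels of single members in these cells. Kcna1, Kcna2 and Kcna6, pore subunits of Shaker-type voltage-gated channels known from axons and glia, were far higher in glia than elsewhere, with lower bounds of the counting interval of the ratio at 2071, 598 and 898. Kcna1 stood at 975 CPM (95% Poisson interval 864 to 1096, 282 UMIs) in glia, with 7 UMIs in all other cells of the library. Kcna2 stood at 778 CPM (679 to 886), with 225 UMIs in glia and 27 elsewhere. Kcna6 had 63 UMIs in glia and 2 elsewhere, a ratio of 3380 with a counting interval of 898 to 28523. Together the members made up 2202 CPM in glia, above the 895 CPM of pericytes, the next class.

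UMIs of the 3 genes often fell in the same glial cells. Each gene was found in most glia, so much overlap is due even without a link, which was not tested. Of 65 glia, 57 had a Kcna1 UMI, 51 a Kcna2 UMI and 48 both. All 36 cells with Kcna6 also had Kcna1. At 1000 UMIs per cell, 64.6% of glia had Kcna1 (exact binomial interval 51.8 to 76.1), against 0 of 3369 Cd81-low fibroblasts. At full depth the shares with a Kcna1 UMI were 87.7% and 0.0594% (2 cells, 0.00719 to 0.214). Kcna1 (chr6:126636463-126645801) and Kcna6 (chr6:126708328-126740834) lie 62.5 kb apart, while Kcna2 is on chromosome 3. Kcna5, the gene on the other side of Kcna1 at 101 kb, had no UMI in glia and marked pericytes and blood endothelium. Neuron markers summed to 156 CPM in the glia class, with Elavl4, Ret, Snap25, Prph and Chrna3 at 0, against 3440 CPM for glial markers. Of the related ion-handling genes, the chloride transporter Clcn3 and the pump regulator Fxyd1 also marked glia, at 111 and 1148 CPM.

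Pericytes, the contractile cells wrapped around small vessels, carried 6 marking members, the most of any class. Kcna5, a voltage-gated pore known from vascular muscle, stood at 96.9 CPM (65.4 to 138), 79.1-fold over other cells. Kcnab1, a cytoplasmic subunit of Shaker-type channels, stood at 113 CPM (78.7 to 157), 76.2-fold. Of 87 pericytes, 18 had a Kcna5 UMI, 17 a Kcnab1 UMI and 10 both. Kcnmb1, an auxiliary subunit, was at 74.3 CPM (9.6-fold). Kcnj8, the pore of the vascular ATP-sensitive channel, had the most UMIs, 39, at 126 CPM (89.6 to 172), 5.68-fold. Its neighbour on chromosome 6, Abcc9, the sulfonylurea receptor of that channel, also marked pericytes at 181 CPM (137 to 235), and 13 of 87 cells had both. Kcne4, a single-span auxiliary subunit named after its values were seen, was at 116 CPM, with an interval of the fold from 3.21 to 6.44 that includes 4. The related genes with the highest folds there were Cacna1c, the pore of the L-type calcium channel of muscle (67.8 CPM), and the pump subunit Atp1b2 (220 CPM).

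In smooth muscle or myofibroblasts, 3 of 7 members with 20 UMIs marked the class, where 2.47% of held-out genes did. Kcnma1, the pore of the large-conductance calcium-activated (BK) channel, stood at 156 CPM (128 to 188), 30.1-fold over other cells. Kcnmb1, the subunit that raises calcium sensitivity of that channel in smooth muscle, stood at 109 CPM (86.2 to 137), 18-fold. Kcnma1 was found in 69 of 162 cells, Kcnmb1 in 52 and both in 30. Pericytes had Kcnmb1 in 14 of 87 cells and Kcnma1 in 3. With every cell thinned to 1000 UMIs, Kcnma1 was in 19 of 162 smooth muscle cells (11.7%, exact binomial interval 7.21 to 17.7) and 1 of 87 pericytes (1.15%, 0.0291 to 6.24), and Kcnmb1 in 18 (11.1%) and 7 (8.05%). Kcnh2, the pore of the ERG channel, stood at 46.8 CPM (32.2 to 65.8), 47.8-fold. The related genes with the highest folds were the cation channels Trpc6 (48.3 CPM) and Trpv2 (28.4 CPM). Kcnmb1 lies within the span of Kcnip1 on chromosome 11, a gene with 3 UMIs in this library's classes, and whether the counting used strand is not given in the sources used here.

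Blood endothelium was marked by 4 of 9 members with 20 UMIs, where 8.21% of held-out genes marked it. Their levels were low, between 8.93 and 14 CPM, and Kcne3, Kcnq1 and Kcnj15 had at most 1 UMI elsewhere. Those 3 thus reached 20 UMIs through this class alone, which fixed that they marked it. Kcne3, a single-span subunit known to pair with Kcnq1 in colon epithelium, had 36 UMIs here and 1 elsewhere, a ratio of 402 with a counting interval of 67.7 to 16319. Kcnq1 had 28 UMIs here and 1 elsewhere (ratio 313, 51.7 to 12789). Of 799 cells, 26 had Kcnq1, 27 had Kcne3 and 3 had both, at a median of 2897 UMIs per cell. Whether 3 is more or fewer than independent genes would give was not tested. Kcnj15, an inward rectifier, had 23 UMIs here and 0 elsewhere and was at least 85.6-fold higher by a floor of 3 counts over the other cells. Kcna5 was at 12 CPM, 9.36-fold, with 31 UMIs here and 37 elsewhere, 30 of them in pericytes. Kcnk2 had the most UMIs of any member, 57, but at 22.1 CPM it was lower than in other cells (121 CPM). The noncoding Kcnq1ot1 overlaps Kcnq1, and their reads cannot be told apart if the counting did not use strand. The related genes with the highest folds were the gap junction gene Gja5 (19 CPM) and the chloride channel regulator Clca3a1 (103 CPM).

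Lymphatic endothelium was marked by both members with 20 UMIs. Kcnn3, a small-conductance calcium-activated channel, stood at 256 CPM (190 to 336), 8.05-fold over other cells. Kcnk5, an alkaline-sensitive 2-pore channel, stood at 160 CPM (110 to 226), 54.9-fold. Of 59 cells, 26 had Kcnn3, 20 had Kcnk5 and 12 had both. In blood endothelium the same genes stood at 9.32 and 9.71 CPM, far below the lower interval bounds of lymphatic endothelium. The related genes with the highest folds were Clca3a1 (195 CPM) and Fxyd6 (441 CPM).

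Telocyte-like cells, the subepithelial cells with the highest Pdgfra, were marked by 5 of 16 members with 20 UMIs, where 2.26% of held-out genes marked them. Kcnj8 had the most UMIs, 461, at 70.5 CPM (64.2 to 77.2), 6.57-fold over other cells. It was found in 19.6% of telocyte-like cells, 19.1% of smooth muscle cells and 3.71% of Cd81-low fibroblasts, at medians of 4003, 3743 and 5492 UMIs. At 1000 UMIs per cell the shares were 6.13%, 3.7% and 0.594%. Barcodes of at most 100 UMIs held Kcnj8 at 33.9 CPM in this library, above the 8.98 CPM of Cd81-low fibroblasts. Abcc9 was at 46.8 CPM, 4.53-fold, and 83 of 1565 cells had both. Kcnk1, a 2-pore channel, stood at 10.1 CPM with 66 UMIs here and 4 elsewhere. Kcnq5, an M-type voltage-gated pore, stood at 5.2 CPM, 10.7-fold, and the acid-sensitive 2-pore channel Kcnk3 at 18.7 CPM (15.5 to 22.3), 6.7-fold. Kcnk3 was no lower in the contractile classes, at 32.3 CPM (15.5 to 59.4) in pericytes and 24.1 CPM (14.1 to 38.6) in smooth muscle, on 10 and 17 UMIs. Kcnd3, an A-type pore named after its values were seen, stood at 10.2 CPM with a fold interval of 3.74 to 8.22. Smooth muscle held Kcnd3 at 9.93 CPM (3.99 to 20.5) on 7 UMIs.

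The few telocyte-like cells of the GFP-low libraries bear on Kcnj8 alone. It stood at 96.8 CPM (55.4 to 157, 24 cells) in GFP-low replicate 1, and at 137 CPM (68.5 to 245) in the 15 cells of replicate 2. Kcnk1 had 0 UMIs in both, which allows up to 22.3 CPM in replicate 1 by the upper Poisson bound. At a finer clustering, the 705, 434 and 421 telocyte-like cells of 3 clusters differed in their channels. Kcnj8 stood at 91.7 (82 to 102), 51.5 (42.5 to 61.7) and 29.3 CPM (18.1 to 44.7) in that order. Kcnk3 stood at 6.25, 39.9 and 13.9 CPM, highest in the second cluster. Kcnn3 ran against Kcnj8, at 32.4, 48.3 and 71.1 CPM. The third cluster was shallow, at 0.355 of its libraries' median UMIs, against 1.07 and 1.12 for the others, and the part of depth was not tested. The related genes with the highest folds in the class were the cation channel Trpa1 (27.4 CPM) and the calcium-activated chloride channel Ano1 (84.7 CPM).

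**Figure D2:**
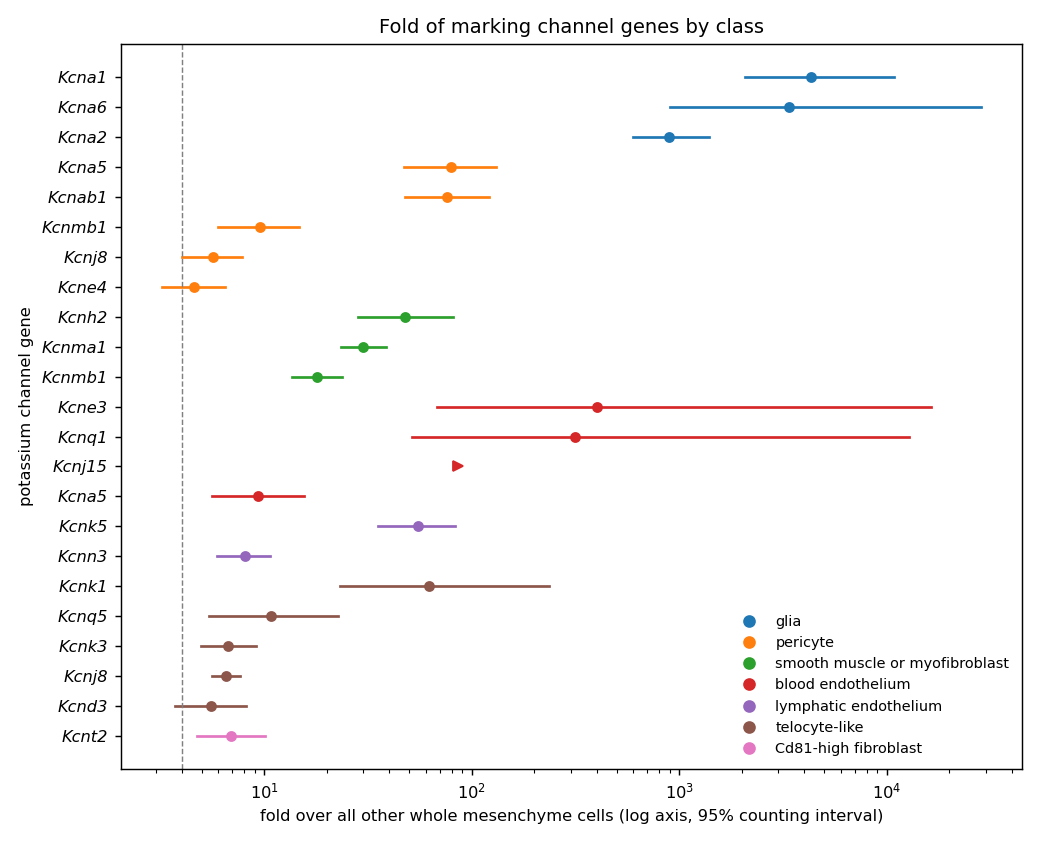
Fold of each marking member reported here over all other whole mesenchyme cells on a log axis, with 95% counting intervals as lines, classes by colour and the limit of 4 as a dashed line. The arrowhead is Kcnj15, at least 85.6-fold against 0 UMIs, and the intervals of Kcne4 in pericytes and Kcnd3 in telocyte-like cells cross the dashed line.

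Among the fibroblasts of whole mesenchyme, Kcnt2, a sodium-activated channel, marked the Cd81-high class at 17.5 CPM (13 to 23.1), 6.93-fold, 1 of 8 members with 20 UMIs against 1.56% of held-out genes. Kcnk2, a 2-pore channel gated by stretch and lipids, had the most UMIs in both classes, with 386 UMIs (135 CPM) among Cd81-high and 2764 UMIs (159 CPM) among Cd81-low fibroblasts. It was found in 49.6% and 46.6% of their cells, against 4.38% of blood endothelium. At 1000 UMIs per cell these shares were 15.9%, 14.5% and 1.38%. Barcodes of at most 100 UMIs, which hold no called cell, held Kcnk2 at 86.3 CPM in this library, more than any other member. Of the related genes, the pump subunit Atp1b1 (12.6 CPM) and the mechanically gated channel Piezo2 (115 CPM) marked the Cd81-high class.

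The fibroblast classes were present in all 3 libraries and were compared over libraries with edgeR's quasi-likelihood test, with the library as a block and Benjamini-Hochberg adjustment over 6202 held-out genes. Of 92 members, 23 passed the filter on low counts. Of these, 4 were higher in the Cd81-high class, where 13.6% of all tested genes rose, and 13 were lower, where 14.9% fell. The median log2 difference of the 23 was -0.77, beside -0.01 over all tested genes. Each of the 17 members that passed differed in the same direction in 3 of 3 libraries. They were selected by a test on these same libraries, which favours such agreement, so it adds no support. Different clusters held most of a class in each library: in the Cd81-high class, 1 cluster led by Myc, Mt2 and Ifit1 held 2839 of 4141 cells of GFP-low replicate 2, and another led by Cfb and Prss23 held 1941 of 2910 cells of replicate 1. In the Cd81-low class, 1 cluster led by Cxcl2, Cxcl5 and Areg held 2076 of 3369 cells of whole mesenchyme and one led by Tcf21 and Fgf10 held 986 of 1189 cells of GFP-low replicate 1. The labels do not name the animals behind each replicate. The p-values then measure only the spread between these libraries, which may be technical.

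Kcnt2 and Kcnk5 rose most in the Cd81-high class. Kcnt2 stood at 17.4, 16.6 and 25.1 normalised CPM in Cd81-high fibroblasts, and at 3.15, 2.04 and 4.54 in Cd81-low fibroblasts. Here and below, 3 values are in the order whole mesenchyme, GFP-low replicate 1, GFP-low replicate 2. The classes did not overlap, and the log2 difference was 2.61 ± 0.16 (SE, edgeR adjusted p = 2.31e-06). Kcnk5 stood at 5.22, 5.49 and 7.02 normalised CPM against 1.6, 0.341 and 0.815, a log2 difference of 2.67 ± 0.35 (edgeR adjusted p = 0.000327), again without overlap. Within the Cd81-high class, the cluster with Pi16 and Dpp4 held Kcnk5 at 11.4, 15.5 and 15.2 CPM in the same order of libraries, and the largest cluster of GFP-low replicate 1 held it at 1.8 CPM. Kcnn1, a small-conductance calcium-activated channel, stood at 4.53, 4.93 and 3.43 normalised CPM against 2.52, 2.73 and 2.1 and rose less, by log2 0.80 ± 0.22 (edgeR adjusted p = 0.0234). Kcnn1 did not pass with DESeq2 (adjusted p = 0.176), and also missed the threshold when either GFP-low replicate was left out (0.16 without replicate 1, 0.0547 without replicate 2).

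Of the 6 members of the Slo and BK auxiliary families, 4 were tested and 3 fell in the Cd81-high class. Of all 23 tested members, 13 fell. Kcnu1, the sperm relative of the BK pore, did not pass (edgeR adjusted p = 0.34), and Kcnmb2 and Kcnmb3, with 1 and 4 UMIs, were not tested. The pore Kcnma1 stood at 2.44, 1.01 and 1.02 normalised CPM among Cd81-high and at 7.78, 8.18 and 8.39 among Cd81-low fibroblasts, without overlap, and its log2 difference was -2.82 ± 0.26 (edgeR adjusted p = 3.29e-05). Kcnmb1 had 1, 0 and 0 UMIs in the Cd81-high class and 103, 35 and 38 in the Cd81-low class (edgeR adjusted p = 2.37e-05). Whole mesenchyme, the 1 library with UMIs in both classes, held it at 0.348 and 5.89 normalised CPM. Kcnmb4, the subunit known from brain, fell by 3.20 ± 0.60 on the log2 scale (edgeR adjusted p = 0.00294), on 6 and 57 UMIs. Lrrc55, another BK subunit in the list of related genes, fell by 4.11 ± 0.39 (edgeR adjusted p = 3.42e-05).

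The sums of smooth muscle and pericyte markers were also lower among Cd81-high fibroblasts, those of smooth muscle only slightly in GFP-low replicate 2. The 10 smooth muscle markers summed to 194, 169 and 243 CPM among Cd81-high and to 298, 273 and 261 CPM among Cd81-low fibroblasts, with Myocd at 0 among Cd81-high fibroblasts of GFP-low replicate 1. The 10 pericyte markers summed to 151, 167 and 155 CPM against 301, 349 and 276 CPM, with Higd1b at 0 among Cd81-high fibroblasts of all 3 libraries and Cd81-low fibroblasts of GFP-low replicate 1, and Mcam at 0 among Cd81-low fibroblasts of GFP-low replicate 2. The smooth muscle class itself held 23367 CPM of its markers, and their part in the differences was not tested. In barcodes of at most 100 UMIs, Kcnmb1 was at 7.64, 0.736 and 0.604 CPM.

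Of 15 inward rectifiers, 2 were tested, Kcnj8 and Kcnj5, and both fell, beside 13 of all 23 tested members. Kcnj8 stood at 2.44, 2.11 and 1.86 normalised CPM among Cd81-high and 8.93, 19.6 and 11.6 among Cd81-low fibroblasts, without overlap, a log2 difference of -2.82 ± 0.22 (edgeR adjusted p = 9.1e-06). Barcodes of at most 100 UMIs held Kcnj8 at 33.9, 7.36 and 9.07 CPM. Telocyte markers, whose class holds most Kcnj8 UMIs of whole mesenchyme, summed to 748, 623 and 747 CPM among Cd81-high and to 1268, 1305 and 1249 CPM among Cd81-low fibroblasts, with all 9 present, and their part was not tested. Abcc9, the partner of Kcnj8, differed by log2 -0.45 ± 0.18 (edgeR adjusted p = 0.0941). Kcnj5, a G protein-gated rectifier, had 2 UMIs over the Cd81-high sums and 55 over the Cd81-low sums (edgeR adjusted p = 0.000729). It stood at 0, 0 and 0.0731 normalised CPM against 1.83, 1.36 and 1.28.

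The other genes that fell included voltage-gated pores and their auxiliary partners, families that hold 40 and 11 of the 92 members. Kcnip3, a calcium-binding partner of A-type channels, stood at 1.04, 0.201 and 0.183 normalised CPM against 14.9, 9.99 and 16.2, a log2 difference of -5.73 ± 0.32 (edgeR adjusted p = 1.06e-06). Kcns3, a silent subunit that modifies other voltage-gated pores, stood at 10.8, 2.87 and 3.4 normalised CPM against 24.2, 21.3 and 14.7 and fell by 2.17 ± 0.25 on the log2 scale (edgeR adjusted p = 0.000139). Neither gene overlapped between the classes. Kcnd3 and Kcnh2 fell by 3.01 and 2.92 on the log2 scale, on 6 and 13 UMIs in the Cd81-high class. Kcng4, another silent subunit, fell by 1.08 ± 0.31 (edgeR adjusted p = 0.0259), and did not pass without GFP-low replicate 1 (0.309).

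Kcnk2, Kcne4 and Kcnn3 had the highest mean levels of the tested members. The differences of Kcnk2 and Kcne4 were small, but so were those of some members at lower levels, such as Kcnk6 (log2 -0.24). That of Kcnn3 was the median of the 23 tested members. Kcnk2 stood at 134, 163 and 110 normalised CPM among Cd81-high and 158, 198 and 171 among Cd81-low fibroblasts, and the ranges overlapped. Its log2 difference of -0.38 ± 0.11 passed (edgeR adjusted p = 0.0239), but not when a GFP-low replicate was left out (0.0903 without replicate 1, 0.273 without replicate 2). Kcnn3 stood at 24.4, 15.7 and 12.3 normalised CPM against 34, 22.6 and 28.3, a log2 difference of -0.77 ± 0.15 (edgeR adjusted p = 0.00399), which did not pass without the library block (0.133). Kcne4 stood at 45.6, 23.3 and 22.9 normalised CPM against 29.4, 25.6 and 16.9, and its log2 difference of 0.30 ± 0.15 did not pass (edgeR adjusted p = 0.171). Without GFP-low replicate 1 it passed at 0.56 (edgeR adjusted p = 0.0254). Kcnd1, an A-type pore, differed by 0.32 ± 0.20 (edgeR adjusted p = 0.263). Kcnu1, Kcnk6 and Kcnab1 were tested and did not pass either.

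**Figure D3:**
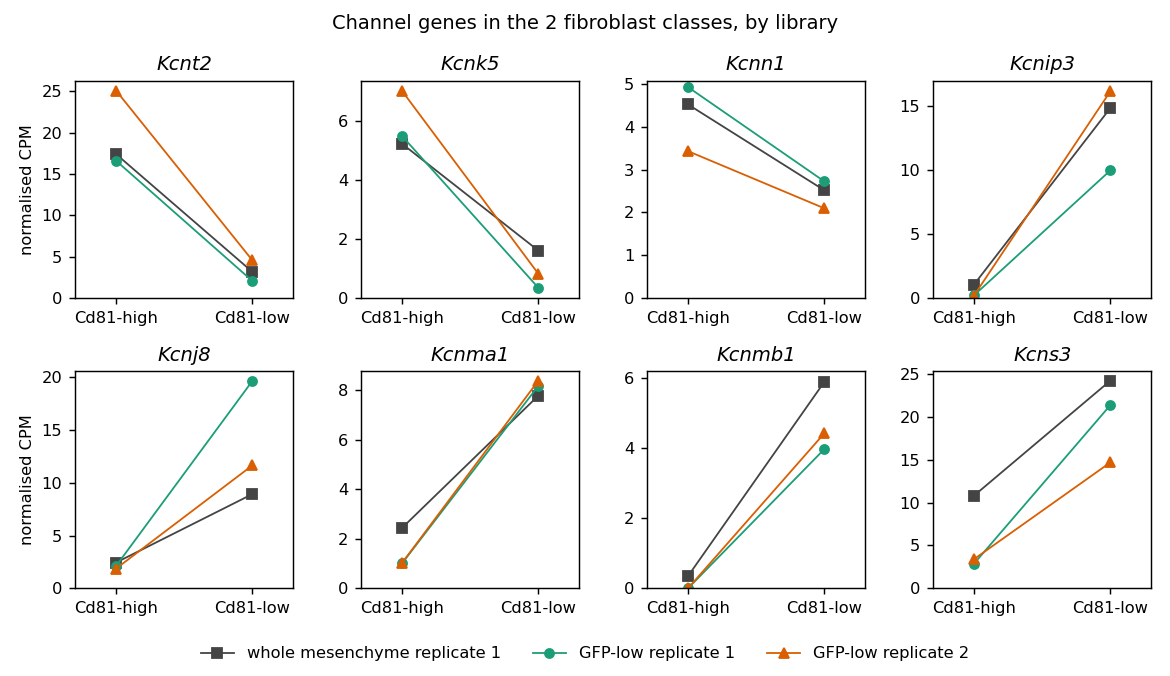
Normalised CPM of 8 members in the Cd81-high and Cd81-low fibroblast classes, with 1 line per library and a vertical axis from 0 in each panel. The lines of Kcnt2, Kcnk5 and Kcnn1 fall toward the Cd81-low class, and those of Kcnip3, Kcnj8, Kcnma1, Kcnmb1 and Kcns3 rise.

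Of the 69 related ion-handling genes, 42 were tested, of which 10 were higher and 13 lower among Cd81-high fibroblasts. Their median log2 difference was -0.08. Over all tested genes, 13.6% rose and 14.9% fell. Calcium channel subunits split evenly, 4 up and 4 down of 10 tested, with the beta subunit Cacnb2 rising by log2 2.55 ± 0.36 (edgeR adjusted p = 0.000502) and the T-type pore Cacna1h falling by 3.44 ± 0.39 (edgeR adjusted p = 0.000106). Of 8 pump subunits 2 rose and 3 fell, led by Atp1b1 at log2 4.50 ± 0.22 (edgeR adjusted p = 4.99e-07) and Fxyd6 at -3.20 ± 0.14 (edgeR adjusted p = 3.02e-07). Both gap junction genes tested fell, and Gja1, the main connexin of stroma, fell by 2.69 ± 0.12 (edgeR adjusted p = 2.85e-07). Of 7 TRP and Piezo channels 1 rose, Piezo2, by log2 4.33 ± 0.21 (edgeR adjusted p = 4.98e-07). Of 4 cotransporters 1, Slc12a7, fell by 2.32 ± 0.25 (edgeR adjusted p = 8.1e-05). Of 5 chloride channels 2 rose, and of 3 calcium release channels Itpr3 rose and Itpr1 fell by 1.06 ± 0.10 (edgeR adjusted p = 3.98e-05). The rises of Itpr3 (log2 0.43, edgeR adjusted p = 0.041) and Clcn3 (log2 0.50, edgeR adjusted p = 0.0413) did not pass when a GFP-low replicate was left out (0.308 and 0.288 without replicate 1, 0.0547 and 0.103 without replicate 2).

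**Figure D4:**
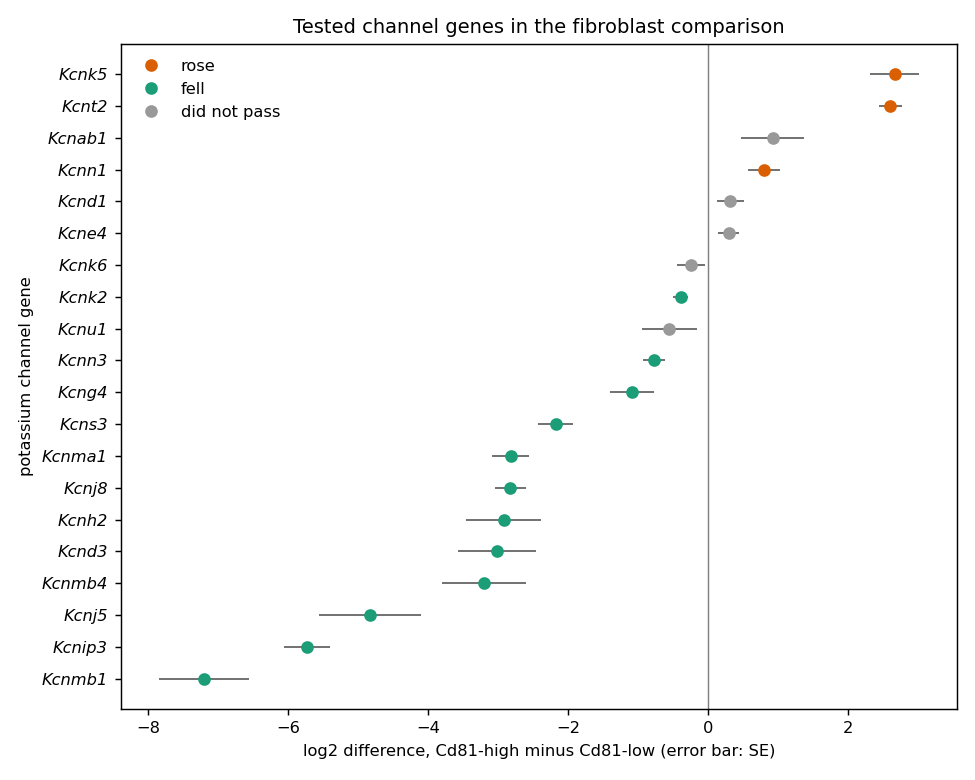
Log2 difference between the Cd81-high and Cd81-low classes for the tested members reported here, as points with SE bars, coloured by the call at an adjusted p of 0.05. Those that rose lie right of 0, led by Kcnk5 and Kcnt2, those that fell lie left of it, and those in grey did not pass. Values of Kcnmb1 and Kcnj5, with 1 and 2 UMIs among Cd81-high fibroblasts, depend on the prior count of the fit.

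Outside the stroma, Kcnn4, the intermediate-conductance calcium-activated channel of lymphocytes, was the 1 member that reached 20 UMIs only in B or plasma cells. It stood at 75.3 CPM (42.1 to 124, 21 cells) in GFP-low replicate 1 and 113 CPM (70 to 173, 23 cells) in GFP-low replicate 2, and at 5.83 CPM in blood endothelium. The 20 UMIs were reached in GFP-low replicate 2 alone. Over all cells of a library Kcnn4 had 25, 35 and 37 UMIs, so other cells held part of them. Its level in T or innate lymphoid cells is not given here. The B or plasma class was not pure: macrophage or dendritic markers summed to 5743 CPM in GFP-low replicate 1, with all 8 present, and to 937 CPM in replicate 2, with C1qa, C1qb, Csf1r, Lyz2 and Adgre1 at 0. B or plasma markers summed to 48503 and 35198 CPM, and the part of these other cells in the Kcnn4 level was not tested.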

How the data were processed

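Count matrices of whole-number UMI counts per gene and barcode were deposited by the authors, made with Cell Ranger 3.0.2 per the file headers, on mm10 per the submitters' processing notes. The labels give 8000 cells loaded for each library. The GFP-low replicates differed beyond counting noise (chi-square per degree of freedom 148 and 52.7 in the Cd81-high and Cd81-low sums). Scrublet marked 2, 3 and 3 cells, removed here, and so did not work as a doublet filter. The 31053 genes were split at random into 15542 for clustering, holding the markers, and 15511 held out, holding the members. Clusters came from scanpy 1.11.5 (2000 variable genes, 30 components, 15 neighbours, Leiden resolution 1, leidenalg 0.10.2) without integration. A name needed at least 3 elevated markers (1.5-fold, 20 CPM) and went to the type with most markers among the 10 leading genes. As first written, the rule let the type with most leading genes take the name before the markers were counted, which left the largest cluster (2957 cells, nearly all of GFP-low replicate 2) unnamed. It was revised after those names were seen and before any difference between classes was computed, and the first rule is among the alternatives. Sums of at least 20 cells were compared with edgeR 4.0.16 (R 4.3.3), using its filterByExpr filter, TMM factors, a library block and a threshold of 0.05. The SE is the log2 difference divided by the root of the F statistic. The 2 sums of a library deviated together (correlations 0.776, 0.678 and 0.517, all other pairs below 0), and share their library by construction. DESeq2 1.42.0 was an alternative. The steps were tested on simulated data. Named were all members that passed and the 3 highest others, and per class up to 4 marking members and the one with most UMIs. Some members that passed are counted but not reported by name here. Members, lists, markers and tests were chosen with earlier results of these data known.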

Additional observations from a re-analysis of the deposited data

Results flagged for a closer look

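Kcnab1, the Shaker-type auxiliary subunit, differed in opposite directions between the sorts. In whole mesenchyme it was lower among Cd81-high fibroblasts (log2 difference -0.19, on 4 and 29 UMIs) and higher among those of GFP-low replicate 1 (0.74) and GFP-low replicate 2 (1.13). The difference between the sorts was not tested.

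The 2 clusters that stayed unnamed, of 1183 and 56 cells at 0.305 and 0.306 of their libraries' median UMIs, entered no comparison and held members above 20 UMIs. Kcnk2 had 281 UMIs there, Kcne4 71, Kcnt2 56, Kcnn3 38, and Kcnd1 and Kcnk5 25 each. Kcnk2 stood at 113 CPM in these cells.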

How the results depend on the processing

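Across 16 alternatives, 12 of the 17 members that passed in the fibroblast comparison passed in the same direction wherever they were tested, and 5 did not, among them Kcng4, Kcnn3, Kcnk2 and Kcnn1. No log2 difference of the genes followed across the alternatives reversed. Those of Kcnab1, Kcnk6, Kcnu1 and Abcc9 were not among the genes followed. With no replicate block, 2 members and 5 related genes rose and 8 related genes fell. DESeq2 and clustering at resolution 2 each gave 2 members that rose. With cells thinned to 1000 UMIs, where 11 members had enough counts, 1 rose and 4 fell, and of the related genes 4 rose and 6 fell. Leaving out 1 library in turn gave 3 to 5 members that rose and 12 to 13 that fell, and 7 to 13 related genes that rose and 10 to 13 that fell. Under the naming rule as first written, 3 members rose and 9 fell, with Kcng4, Kcnk2 and Kcnn1 no longer passing, and Kcnmb4 and Kcnd3 were not tested for low counts. That rule and the removal of clusters under 0.5 of the depth of their libraries were added after the data were seen. At resolution 2 and with another gene split, a large cluster (1522 and 2279 cells) also stayed unnamed.

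Of 24 pairs of a member and a class it marks, the same 24 were found at resolutions 0.5 and 2, with another gene split, under the first naming rule, without shallow clusters and after 5% of free RNA was subtracted. A 2-fold limit gave 37 pairs and an 8-fold limit 18. Thinning left 9 pairs, 7 of them among the 24, since few genes keep 20 UMIs. With at least 2000 UMIs and at most 10% mitochondrial UMIs per cell, limits changed together, 19 were left, and Kcnj15 in blood endothelium and Kcna5, Kcnab1 and Kcnmb1 in pericytes were among those lost. A member under 20 UMIs in a small class was not described, and each class level rests on 1 library.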
